A study of Gloeophyllum trabeum and Trametes versicolor with 18 samples.

Results

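The transcripts described here are the abundant transcripts of *Trametes versicolor* whose level was nearly the same on 3 carbon sources. They were chosen from TPM, a level that is corrected for transcript length and expressed as a share of each library. A transcript was a member where the lowest of its 3 carbon source means was at least 200 TPM and the highest was at most 1.3 times the lowest. This gave 93 of the 15606 *T. versicolor* transcripts, out of 27486 listed for the 2 fungi of the study. They were 20.5% of the 453 *T. versicolor* transcripts whose lowest mean reached 200 TPM. The fungus (strain A1-ATF) had been grown in Highley's medium, which supplies minerals beside the carbon source, and was sampled at 7 days. The groups were high-melanin fungal necromass at 0.45% (w/v), low-melanin fungal necromass at 0.45%, and glucose at 1%, with 3 libraries each. Necromass is dead fungal biomass and melanin a dark polyphenolic wall pigment. The design compares expression between these carbon sources, which were supplied at unequal concentrations. *Gloeophyllum trabeum*, the other fungus of the study, enters only as a count.

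*T. versicolor* is a white-rot fungus, known for secreting laccases and peroxidases that attack lignin along with enzymes that open up cell wall polymers. In growing fungal cells the transcripts that stay high whatever the food are typically those of core machinery, such as ribosomal proteins, translation factors, histones, ubiquitin and enzymes of energy metabolism. Transcripts of this kind serve as internal references when other genes are measured. The *T. versicolor* identifiers (jgi.p|Traver1|number) are not paired with gene names, products or sequences in the sources used here. No member can therefore be assigned to any of these groups, and members are described by their levels, their spread and their coding length.

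Total estimated counts per *T. versicolor* library ran from 18301303 to 26514709, and the lowest count of any member in any library was 444. Nothing in the labels tells whether replicates were grown as separate cultures, so the spread behind each p-value may be a technical one. One library stood apart in its TPM. In low-melanin replicate 1 a pair of very short transcripts, jgi.p|Traver1|7139 (63 bases) and jgi.p|Traver1|7140 (108 bases), stood at 138610 and 119962 TPM and took 25.9% of all TPM. Together they took 2.41% to 7.64% in the other 8 libraries. Their effective length, the number of positions from which a fragment can start, was 16.0 to 28.4 bases, and they held 1.11% of the counts of that library against 0.152% to 0.304% of the others. Neither is a member, and they were singled out after their values were seen. Since TPM adds up to a fixed total, every other transcript of that library has a lower TPM beside them.

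The members ranged widely in level, from a mean of 209 to 17757 TPM over the 9 libraries, with a median of 355. In 37 of them the mean reached 500 TPM and in 10 it reached 1000. The most abundant was jgi.p|Traver1|5015, with a coding length of 255 bases. It stood at 19759, 16106 and 15148 TPM on high-melanin necromass, at 13505, 16305 and 20956 on low-melanin necromass, and at 19063, 18837 and 20135 on glucose. The glucose libraries lay close together, while the low-melanin libraries spread around them on both sides, with replicate 1 lowest of the 9. Group means were 17004 ± 2433, 16922 ± 3764 and 19345 ± 693 TPM on high-melanin necromass, low-melanin necromass and glucose (SD, n = 3 each). Its mean of 17757 TPM exceeded the 13918 TPM of the next 4 members combined.

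The 2nd was jgi.p|Traver1|2625 (663 bases), at 4632, 5210 and 4912 TPM on high-melanin necromass, 4520, 5942 and 5878 on low-melanin necromass, and 6132, 4596 and 5211 on glucose. All 3 groups overlapped. The 3rd, jgi.p|Traver1|6599 (228 bases), stood at 4534, 4387 and 4594 TPM on high-melanin necromass, 3015, 3896 and 4231 on low-melanin necromass, and 3858, 3260 and 3955 on glucose. Its high-melanin libraries all lay above those of the other groups, which overlapped each other. Its highest mean was 1.22 times its lowest.

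**Figure D1:**
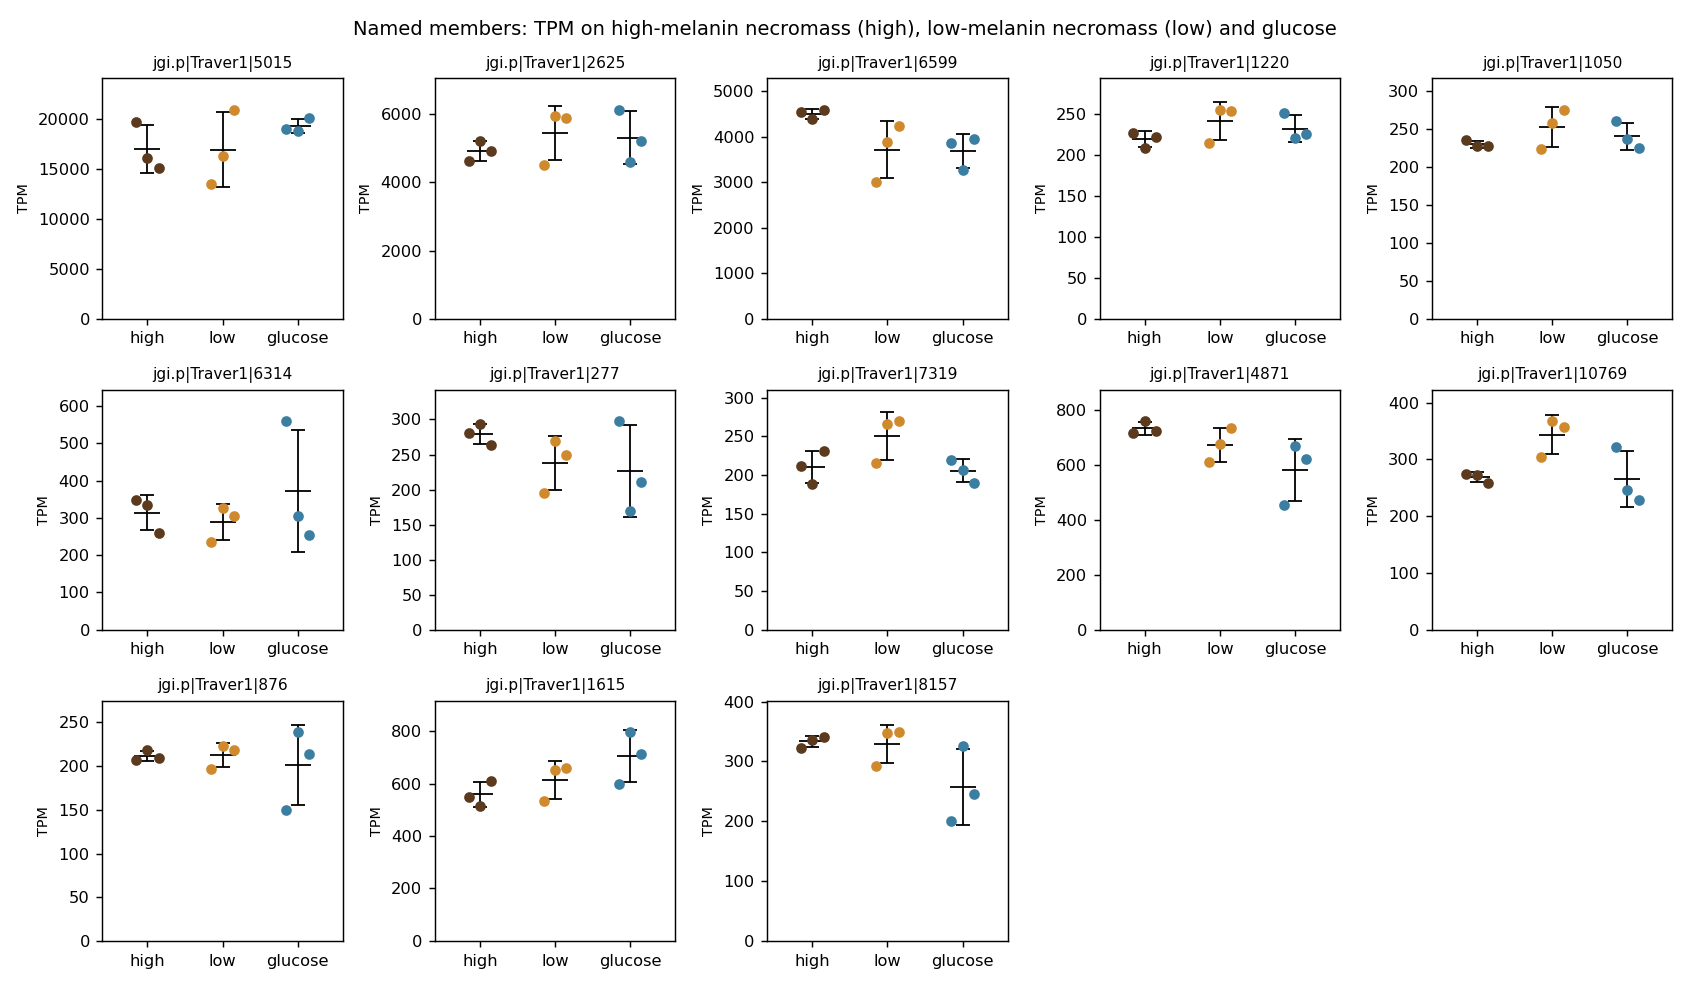
TPM of 13 named members in each of the 9 libraries, with high-melanin necromass (high), low-melanin necromass (low) and glucose along the horizontal axis of each panel and TPM from 0 on the vertical axis. Points are libraries in replicate order, and bars give the mean and SD of 3. The low-melanin point of replicate 1 is the lowest of its group in every panel, and in jgi.p|Traver1|6314 1 glucose library at 560 TPM lies far above the rest.

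The values that chose the members are given here as a description. The ratio of highest to lowest group mean had a median of 1.18 and ran from 1.012 to 1.296. It was at most 1.1 in 15 members and at most 1.2 in 51. The highest mean was on high-melanin necromass in 28 members, on low-melanin necromass in 33 and on glucose in 32. The lowest was on high-melanin necromass in 38, on low-melanin necromass in 31 and on glucose in 24. All 6 possible orders of the carbon sources occurred, in 11 to 22 members each.

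At the edges of the rule, jgi.p|Traver1|10769 was the last transcript inside the ratio limit, with means of 268.7 TPM on high-melanin necromass, 343.5 on low-melanin necromass and 265.1 on glucose, a ratio of 1.296. The first outside was jgi.p|Traver1|7342, with means of 285.2, 219.2 and 249.3 TPM in the same order and a ratio of 1.301. By level, jgi.p|Traver1|876 was the last inside, with a lowest mean of 201.2 TPM on glucose. The first outside was jgi.p|Traver1|9482, with a lowest mean of 199.7 TPM, also on glucose. In its glucose libraries jgi.p|Traver1|876 stood at 150.1, 239.2 and 214.4 TPM, a spread far wider than the step from one side of the limit to the other.

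A stable mean did not imply equal single libraries. The ratio of the highest to the lowest of the 9 libraries had a median of 1.5 among members and ran from 1.23 to 2.38, and only 10 of the 93 stayed within 1.3 times over all 9. Among the 360 other transcripts of at least 200 TPM that ratio had a median of 2.44. These had exceeded the limit of 1.3 in their group means, so none could stay within it over 9 libraries. Their higher median is likewise partly set by the rule. The steadiest member was jgi.p|Traver1|1220 (765 bases), at 227, 208 and 222 TPM on high-melanin necromass, 214, 255 and 254 on low-melanin necromass, and 251, 220 and 225 on glucose. Next came jgi.p|Traver1|1050 (393 bases), at 235, 227 and 227 TPM on high-melanin necromass, 224, 258 and 275 on low-melanin necromass, and 260, 236 and 225 on glucose. Both have overlapping groups and a ratio over 9 libraries of 1.23. Fitted on counts, both were nevertheless among the transcripts called, as given with the fits.

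At the other end, jgi.p|Traver1|6314 (264 bases) had the largest spread within a group, a coefficient of variation of 44.3% on glucose. It stood at 348, 334 and 260 TPM on high-melanin necromass, 236, 326 and 305 on low-melanin necromass, and 560, 304 and 253 on glucose. The single value of 560 sets its glucose mean. The next largest was jgi.p|Traver1|277 (294 bases), with a coefficient of 28.9% on glucose. Its glucose libraries, at 298, 170 and 211 TPM, covered the values of all 6 necromass libraries, which were 281, 293 and 264 on the high-melanin type and 195, 269 and 250 on the low-melanin type.

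The median coefficient of variation of members was 6.04% on high-melanin necromass, 13.3% on low-melanin necromass and 10.2% on glucose. For the 360 other abundant transcripts it was 6.03%, 14.9% and 13.3% in the same order. On high-melanin necromass the replicates of members and of other abundant transcripts spread alike, and in the other groups members spread less. These differences were not tested. A wide replicate spread moves a group mean, so the rule itself favours transcripts with a small spread. In low-melanin replicate 1, 45 of the 93 members had their lowest TPM of all 9 libraries and none their highest.

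Libraries that took no part in the choice give a measure that the rule did not use. The rule was applied to 6 libraries, with 1 replicate number left out of all 3 groups, and the range was then read in the 3 left-out libraries. With replicates 3 left out, 90 transcripts were chosen, and the highest TPM of the left-out libraries was at most 1.3 times the lowest in 60 of them (66.7%), against 23 of 357 other abundant transcripts (6.44%). With replicates 2 left out the counts were 43 of 90 (47.8%) and 33 of 354 (9.32%). With replicates 1 left out, which include the low-melanin library that stood apart, they were 29 of 92 (31.5%) and 42 of 377 (11.1%). The median ratio in left-out libraries was 1.23, 1.32 and 1.42 for chosen transcripts and 1.83, 1.82 and 2.15 for the others, with replicates 3, 2 and 1 left out. Not all chosen transcripts were members: 82 of the 90, 70 of the 90 and 71 of the 92 were, in the same order. The percentages therefore describe the rule, not the members as a set. The other abundant transcripts had exceeded the ratio limit in the 6 libraries used, so transcripts that met it are compared with those that did not. These rounds share libraries and single libraries vary more than means, so no test was made.

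**Figure D2:**
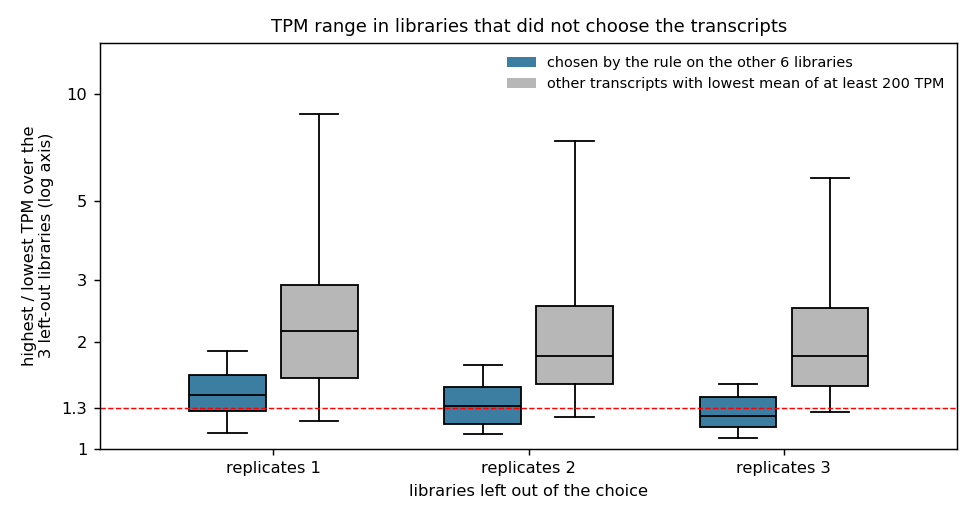
Ratio of the highest to the lowest TPM over 3 left-out libraries (log axis), for transcripts chosen by the rule on the other 6 libraries (blue) and for other transcripts of at least 200 TPM (grey). Boxes span the quartiles with the median as a line, whiskers run from the 5th to the 95th percentile, and the dashed line marks 1.3. The blue medians are 1.42, 1.32 and 1.23 and the grey ones 2.15, 1.82 and 1.83, from left to right.

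Above 10 TPM the share of transcripts that met the ratio limit varied little with level. Among *T. versicolor* transcripts with a lowest mean of 10 to 50 TPM, 20.7% of 4077 had a highest mean of at most 1.3 times the lowest. The share was 20.2% of 1424 transcripts at 50 to 200 TPM, 19.9% of 306 at 200 to 500, 21.4% of 103 at 500 to 1000 and 22.7% of 44 above. At 1 to 10 TPM it was 12.9% of 5759 transcripts. The same rule in *G. trabeum*, on the same carbon sources, gave 80 members among 418 transcripts of at least 200 TPM, or 19.1%. The files pair no transcripts between the fungi, so whether the same genes are involved was not tested.

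**Figure D3:**
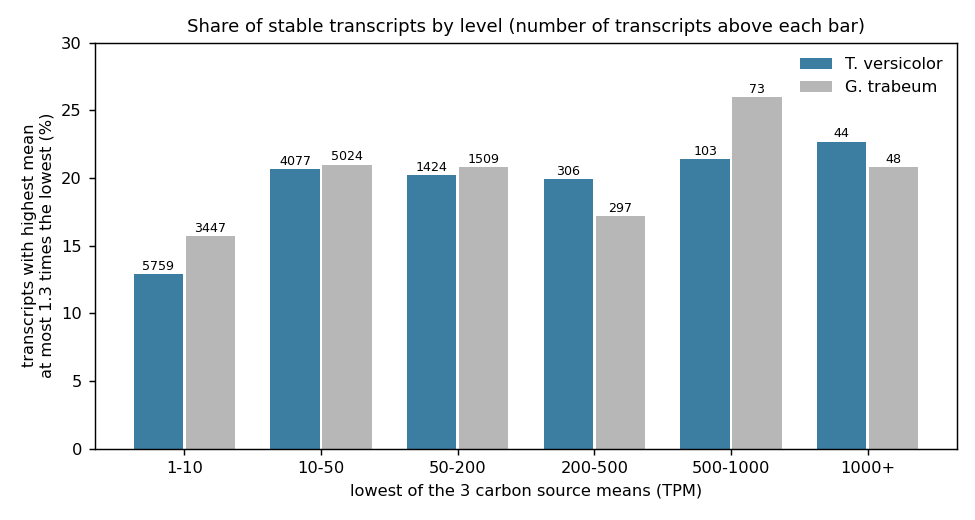
Share of transcripts whose highest carbon source mean was at most 1.3 times the lowest, by the lowest mean (TPM), in *T. versicolor* (blue) and *G. trabeum* (grey). Numbers above the bars are the transcripts in each band. From 10 TPM upward the *T. versicolor* share stays between 19.9% and 22.7%.

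Members were short. Their coding length had a median of 420 bases and quartiles of 285 and 651, against a median of 492 in the other abundant transcripts and 1110 in all 15606. Under 300 bases were 28 members (30.1%), 67 other abundant transcripts (18.6%) and 7.47% of all. At least 1000 bases were found in 10 members (10.8%), against 57.3% of all transcripts. The lengths are those of coding models, since all 93 are multiples of 3, as are 15551 of the 15606. Counts that were not whole numbers, which arise when reads are divided between similar transcripts, occurred in 2 members, jgi.p|Traver1|196 and jgi.p|Traver1|7473, whose levels are uncertain. That is 2.15% of members, against 4.72% of other abundant transcripts.

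Length matters because TPM divides by the effective length, which shrinks quickly as a transcript approaches the fragment size. For transcripts over 3000 bases, 267 to 293 bases were taken off on high-melanin necromass, 249 to 274 on low-melanin necromass and 291 to 344 on glucose. The ranges of low-melanin necromass and glucose did not overlap. The 344 bases were those of glucose replicate 1, where glucose replicates 2 and 3 had 291 and 309. In the 28 members under 300 bases the median effective length was 72.6 bases on high-melanin necromass, 78.8 on low-melanin necromass and 65.0 on glucose. In the 10 members of 1000 bases or more it was 1023, 1043 and 987 bases. The ratio of effective lengths, low-melanin necromass over glucose, had a median of 1.21 in the shortest class and 1.06 in the longest.

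The shortest member, jgi.p|Traver1|4871 (207 bases), stood at 718, 761 and 723 TPM on high-melanin necromass, 611, 677 and 734 on low-melanin necromass, and 454, 668 and 623 on glucose, with 45.2 to 54.6 effective bases. The longest, jgi.p|Traver1|7319 (1635 bases), stood at 212, 189 and 231 TPM on high-melanin necromass, 215, 266 and 270 on low-melanin necromass, and 220, 207 and 190 on glucose, with 1291 to 1386 effective bases. Its groups of low-melanin necromass and glucose overlapped only through low-melanin replicate 1 and glucose replicate 1. The modelled length of the shortest member is thus several times below its coding length, while that of the longest is close to it.

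Stability in TPM is also stability of a share, not of an amount, and in bulk RNA a change in RNA per cell and a change in the number of cells cannot be told apart. All members together took 7.38%, 6.97% and 6.90% of TPM on high-melanin necromass, 6.0%, 7.59% and 7.94% on low-melanin necromass, and 7.64%, 7.09% and 7.47% on glucose. Group means were 7.08% ± 0.26, 7.18% ± 1.0 and 7.40% ± 0.28 (SD, n = 3 each). The 6.0% of low-melanin replicate 1 is the lowest of all. When TPM was recomputed without the pair of short transcripts, the shares became 7.68%, 7.48% and 7.18% on high-melanin necromass, 8.10%, 8.04% and 8.60% on low-melanin necromass, and 7.83%, 7.49% and 7.81% on glucose. The low-melanin libraries then all lay above the other 6. Because members were chosen for equal means in deposited TPM, removing the pair raises this group most by construction, and nothing is read from it. As a share of counts, the members took 3.11%, 3.20% and 3.01% on high-melanin necromass, 3.30%, 3.22% and 3.38% on low-melanin necromass, and 3.46%, 3.18% and 3.39% on glucose. On that scale the low-melanin libraries lay within the range of the glucose libraries.

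In TPM without the pair of short transcripts, the members' median coefficient of variation on low-melanin necromass fell to 4.48%, against 13.3% in deposited TPM. There 20 members stayed within 1.3 times over all 9 libraries in place of 10. The rule itself would choose 94 transcripts there, 74 of them among the 93. Scaling by TMM on length-scaled counts, a method that lines libraries up on the bulk of transcripts, put the members' median level on low-melanin necromass above that on glucose by 0.17 on the log2 scale. Since the members were chosen for equal means in deposited TPM, any scale that raises the low-melanin libraries raises them there by construction, and nothing is read from that shift. It chose 81 transcripts, of which 63 were members, or 67.7% of the members.

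**Figure D4:**
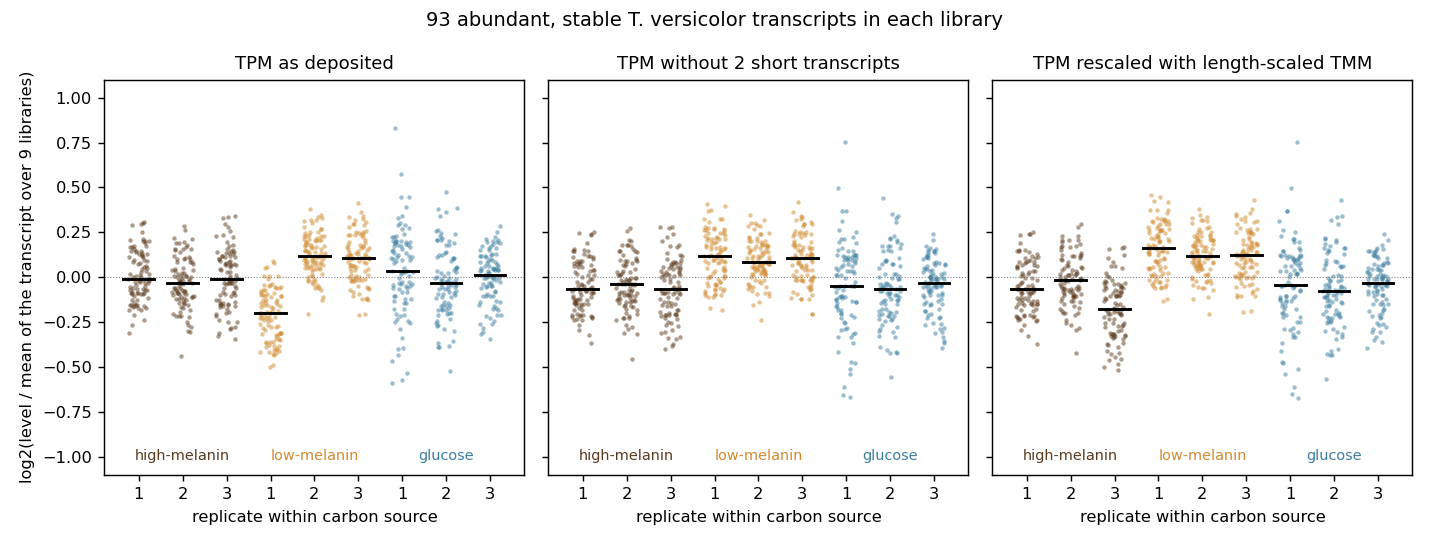
Level of each of the 93 members in each library, as log2 of the level over the member's geometric mean of 9 libraries, with TPM as deposited (left), TPM without the pair of short transcripts (middle) and TPM rescaled with TMM on length-scaled counts (right). Points are members and black lines their medians. Low-melanin replicate 1 lies at a median of -0.20 on the left and at 0.12 and 0.17 on the other scales, and high-melanin replicate 3 is lowest on the right at -0.18.

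All 93 members passed the filter on low counts and were tested with the other transcripts in edgeR's quasi-likelihood test with TMM scaling, 13340 in all. Because the members were chosen on the same contrasts, their counts are a description and nothing is read from them about the carbon sources. For low-melanin necromass against glucose, 47 members were called (Benjamini-Hochberg adjusted p under 0.05), where 62.8% of all transcripts were. All 47 were higher, 50.5% of members, beside 30.4% of all transcripts called higher and 32.4% called lower. No member was called lower in this fit or by DESeq2, which called 4236 of all transcripts lower. None was lower at an unadjusted p under 0.05 in this fit, beside 34.4% of all transcripts. In other edgeR fits 1 member was called lower with fragment length as a covariate, 1 without glucose replicate 2, 3 under upper-quartile scaling and 5 when only library size was used. Of all transcripts those fits called 2733, 4424, 5895 and 6074 lower, in the same order. The members' median log2 fold change was 0.28, beside -0.04 over all transcripts.

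For high-melanin necromass against glucose 16 members were called (17.2%), where 54.5% of all transcripts were. Of these 13 were higher and 3 lower, beside 26.8% and 27.7% of all transcripts. By library size alone the split was 3 higher and 11 lower, and with upper-quartile scaling 1 and 15. Of all transcripts, library size alone called 2935 higher and 4259 lower, and upper-quartile scaling 2707 and 4677. With TMM the members' median log2 fold change was 0.01, beside -0.01 over all. Set against low-melanin necromass, 43 members were called, where 54.1% of all transcripts were, and all 43 were lower on the high-melanin type (46.2%, beside 27.8% of all transcripts), with a median of -0.25, beside -0.01 over all. None was called higher there by edgeR or DESeq2, where edgeR called 26.3% of all transcripts higher and DESeq2 called 3550 higher. At an unadjusted p under 0.05 none was higher either, beside 28.7% of all transcripts. The comparisons share their libraries pairwise, so these counts are not independent. Fitted log2 fold changes of members stayed between -0.62 and 0.64 over the 3 comparisons.

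With the effective lengths entered as an offset, an alternative added after seeing the data, 22 members were called higher on low-melanin necromass than on glucose (23.7%, beside 31.1% of all transcripts), all of them among the 47. The median log2 fold change was 0.17. For high-melanin necromass against glucose 1 was higher and 6 lower (beside 27.4% and 27.2% of all), and 2 calls were shared with the fit without the offset. On high-melanin against low-melanin necromass 35 were called (beside 53.3%), all lower (beside 27.6%) and all among the 43. None was higher in that fit (beside 25.6%), also at an unadjusted p under 0.05 (beside 28.3%). DESeq2, run without the offset, called no member higher, beside 3550 of all transcripts. By library size alone only 7 members were higher and 5 lower on low-melanin necromass than on glucose, with a median of 0.01 while the median of all transcripts moved to -0.32. With upper-quartile scaling 9 were higher and 3 lower. Of all transcripts, library size alone called 2699 higher and 6074 lower there, and upper-quartile scaling 2853 and 5895. Between the necromass types, high-melanin over low-melanin, library size alone gave 2 higher members and 15 lower ones. It called 4555 of all transcripts higher and 2702 lower. Without low-melanin replicate 1, 29 were called for low-melanin necromass against glucose and 28 for high-melanin against low-melanin necromass. Of all transcripts 7490 and 6168 were called in those fits. For high-melanin necromass against glucose 8 were called without high-melanin replicate 1, 6 without high-melanin replicate 2 and 24 without glucose replicate 1. Calls over all transcripts ran from 6315 to 7732 there when single libraries were left out.

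**Figure D5:**
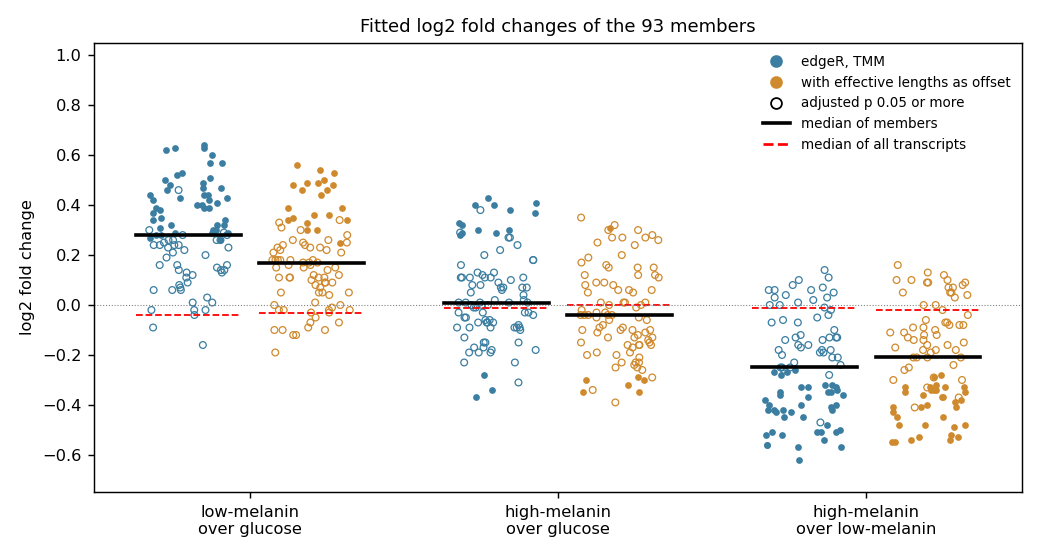
Fitted log2 fold changes of the 93 members in 3 comparisons, from edgeR with TMM (blue) and with effective lengths as an offset (orange). Filled points have an adjusted p under 0.05, black lines are the members' medians (0.28 and 0.17, 0.01 and -0.04, -0.25 and -0.21 from left to right) and dashed lines the medians of all transcripts.

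The member with the largest called rise on low-melanin necromass was jgi.p|Traver1|8157 (237 bases). It stood at 53.5, 45.1 and 48.3 CPM (counts brought to a common library size with TMM) on low-melanin necromass, against 23.7, 39.7 and 30.5 on glucose. The groups did not overlap, and the log2 fold change was 0.64 ± 0.16 (SE, adjusted p = 0.0033 in edgeR). In TPM its groups did overlap, at 293, 347 and 349 on low-melanin necromass, against 201, 326 and 245 on glucose. The call was lost with fragment length as a covariate (log2 fold change 0.13, adjusted p = 0.63). Over all alternatives the adjusted p ran between 0.000134 and 0.63.

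On high-melanin necromass the largest called rise was that of jgi.p|Traver1|277, at 52.2, 55.8 and 46.9 CPM, against 47.5, 30.4 and 37.1 on glucose. Its log2 fold change was 0.43 ± 0.14 (SE, adjusted p = 0.0225 in edgeR). The groups overlapped through glucose replicate 1. With the offset it was 0.30 and not called (adjusted p = 0.149). It was also not called without glucose replicate 2 or 3 or high-melanin replicate 1 or 2 (log2 fold change 0.29, 0.42, 0.42 and 0.37), or with library size or upper-quartile scaling, and the adjusted p ran between 0.000227 and 0.149. The largest called fall there was jgi.p|Traver1|1615 (990 bases), at 781, 762 and 797 CPM on high-melanin necromass, against 845, 1140 and 1030 on glucose, without overlap. Its log2 fold change was -0.37 ± 0.12 (SE, adjusted p = 0.0237). The call was lost without glucose replicate 2 or 3 or any one of the 3 high-melanin replicates (log2 fold change -0.26, -0.34, -0.36, -0.35 and -0.38), and in the fit of only the 6 libraries compared (-0.35, adjusted p = 0.0647). The adjusted p of all alternatives ran between 0.00104 and 0.0735. Against low-melanin necromass, which stood at 1000, 960 and 972 CPM, it was -0.33 ± 0.12 (SE, adjusted p = 0.0394), and 12 of 18 alternatives lost the call. These were the fits without any one high-melanin or low-melanin replicate or without glucose replicate 3 (-0.31 to -0.34), library size alone (-0.15), fragment length as a covariate (-0.21), upper-quartile scaling (-0.24), and the replicate block and DESeq2 size factors (-0.33 each). The adjusted p of all 18 ran between 0.00481 and 0.269. For jgi.p|Traver1|8157 and jgi.p|Traver1|277 that comparison gave -0.26 and -0.01 (adjusted p = 0.181 and 0.972). The members with the steadiest TPM were also called. On low-melanin necromass against glucose the log2 fold change was 0.27 ± 0.10 for jgi.p|Traver1|1220 and 0.43 ± 0.10 for jgi.p|Traver1|1050 (SE, adjusted p = 0.0272 and 0.00213 in edgeR), and 0.24 and 0.25 with the offset (adjusted p = 0.0614 and 0.0453). The longest member, jgi.p|Traver1|7319, gave 0.39 ± 0.10 (SE, adjusted p = 0.00613), and 0.46 with the offset. On high-melanin against low-melanin necromass jgi.p|Traver1|1220, jgi.p|Traver1|1050 and jgi.p|Traver1|7319 gave -0.34, -0.35 and -0.42 (adjusted p = 0.00964, 0.00908 and 0.00439 in edgeR). With the offset they gave -0.33, -0.33 and -0.45 (adjusted p = 0.0154, 0.0148 and 0.00407). None of these was called on high-melanin necromass against glucose in either fit.

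In 32 members no comparison was called in either fit. They had a median of 367 TPM and 475.5 bases, against 355 TPM and 417 bases in the 61 others. Over all transcripts, 18.8% had no call in the fit without the offset. A p that misses the threshold does not show equal levels. Steadiness depended on the scale here too. Of the 10 members within 1.3 times over the 9 libraries in deposited TPM, 1 also kept within 1.3 times after scaling by TMM on length-scaled counts, where 12 members did so. That transcript, jgi.p|Traver1|9655 (663 bases), was singled out after its values were seen. It stood at 355, 380 and 410 TPM on high-melanin necromass, 335, 425 and 373 on low-melanin necromass, and 371, 408 and 352 on glucose. All 3 groups overlapped, its ratio over 9 libraries was 1.27 on both scales, and its log2 fold changes against glucose were 0.05 ± 0.11 for high-melanin and 0.25 ± 0.11 for low-melanin necromass (SE, adjusted p = 0.711 and 0.0605 in edgeR).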

How the data were processed

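RNA sequencing libraries of *T. versicolor* were grouped by carbon source from their labels. The tools named in the submitters' processing notes are kallisto 0.51.1, whose column names the files carry, and DESeq2 1.48.2. The transcript set is not given in the sources used here. The authors deposited estimated counts, TPM values, lengths and effective lengths per transcript. Members and named transcripts were chosen with earlier results of these data known. The rule was applied to the deposited TPM. Named are the 3 highest, the 2 steadiest over 9 libraries, the 2 with the largest coefficient of variation within a group, the longest and shortest, those beside each limit, and the largest called rise and fall on each necromass against glucose (no fall was called on low-melanin necromass). The parts of the naming rule that need gene products could not be applied. Estimated counts were rounded, filtered with filterByExpr (13340 transcripts left) and fitted over all 9 libraries with edgeR 4.0.16 in R 4.3.3 (quasi-likelihood, robust, TMM, carbon source as the only term). DESeq2 1.42.0 was an alternative. Calls were made at an adjusted p under 0.05, with Benjamini-Hochberg adjustment across the transcripts tested. Counts off a whole number by over 0.01 were taken as divided between transcripts. No pair of replicates agreed within sampling noise (chi-square per degree of freedom of at least 17.4), so all 9 libraries were counted. The highest values, 97.2 and 58.5, were those of glucose replicate 1 with glucose replicates 2 and 3.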

Additional observations from a re-analysis of the deposited data

How the results depend on the processing

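The number of members was 86 to 96 when single libraries were left out, with 84.9% to 96.8% of the 93 kept, 87 with group medians, 80 to 87 in other units or TMM and size factor scalings, where 45.2% to 73.1% of the 93 were kept, and 94 in TPM without the pair of short transcripts, where 79.6% were kept. It was 51 and 172 with ratio limits of 1.2 and 1.5, 195 and 32 with level limits of 100 and 500 TPM, 10 with all 9 libraries within 1.3 times, and 14 so with TMM on length-scaled counts. By library size alone 12 members were called for low-melanin necromass against glucose and 17 for high-melanin against low-melanin necromass, with medians of 0.01 and -0.08, and -0.09 for high-melanin necromass against glucose. Upper-quartile scaling called 12 in the first comparison, with medians of 0.04, -0.14 against glucose on the high-melanin type and -0.17 between the types. Scaling moved the median of all transcripts by up to 0.28. Of all transcripts, library size alone called 8773 and 7257 in the 2 comparisons given for it, and upper-quartile scaling 8748 in the first. A fit of the 6 libraries compared called 9 members for high-melanin necromass against glucose, beside 6703 of all transcripts. With fragment length as a covariate, whose values do not overlap between low-melanin necromass and glucose, 17 members and 5517 transcripts were called for that comparison, with a median of 0.23. With the effective length offset 22 and 7 members were called on low-melanin and high-melanin necromass against glucose, with medians of 0.17 and -0.04. Leaving out single libraries gave 29 to 52 called members for low-melanin necromass against glucose, 6 to 24 for high-melanin necromass against glucose (median 0.00 to 0.06) and 28 to 47 between the types. Calls over all transcripts ran from 7489 to 8501, 6315 to 7732 and 6168 to 8084 in the same order. The cause of these shifts was not tested. The replicate numbers did not pair the libraries (correlations of same-numbered deviations -0.15 to 0.03). The replicate block called 44, 14 and 36 members in the order of the comparisons above, and fewer than 1.5 times away from the counts without it. Of all transcripts the block called 8094, 6969 and 6852. DESeq2 size factors, no filter on low counts and DESeq2 left the 3 counts of members within 1.5 times. The lowest count of any member was 444, and the effect of depth was not tested.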
